A study of Homo sapiens with 6 samples.

Results

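Heat shock protein genes of the cytosol and mitochondria were examined in HMV-II cells, a human melanoma line of vaginal mucosa, after knockdown of EZH2. The 10 genes were HSF1, HSPA1A, HSPA1B, HSPA8, HSP90AA1, HSPH1, DNAJB1, BAG3, HSPD1 and HSPE1, taken by gene symbol from a table of 30015 genes. All 10 were listed, and 9 of them were among the 15251 genes whose mean over the libraries reached 10 normalized counts and which were therefore tested. RNA-seq of poly-A RNA was available for 3 Vector libraries, with the labelled genotype WT, and 3 shEZH2 libraries, labelled EZH2 knockdown. No treatment was given in either group, and neither age nor time after infection was stated in the labels. According to the methods of the study, both groups were lentivirus-infected and puromycin-selected lines, with a scrambled shRNA in the controls. The header of the knockdown mean in the table names a single shRNA, so loss of EZH2 and other effects of that shRNA cannot be told apart. Nothing in the labels says whether replicates came from separate cultures, and p-values then measure only the spread between these samples, which may be technical.

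Heat shock proteins are molecular chaperones that bind unfolded or partly folded proteins and help them fold, assemble or reach degradation. HSF1 is the transcription factor that switches on the inducible members of the family when misfolded proteins accumulate, by binding repeats of the unit GAA in alternating orientation in their promoters. HSP70 proteins work in a cycle with J-domain proteins, which deliver clients and stimulate ATP hydrolysis, and with nucleotide exchange factors, which release them. HSP90 acts later on kinases, steroid receptors and other clients, and HSP60 with its lid HSP10 folds proteins in the mitochondrial matrix. Tumour cells, melanoma among them, commonly hold several of these chaperones at high levels.

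HSPA8 was the heat shock gene that stood out. It encodes HSC70, the constitutive HSP70 of the cytosol, and its level was 2.22-fold higher in shEZH2 (95% interval 1.76 to 2.81). DNAJB1, a J-domain partner of HSP70, was 1.53-fold higher (95% interval 1.16 to 2.02). In bulk RNA, more expressing cells and more RNA per cell cannot be told apart. The stress-inducible HSP70 genes HSPA1A and HSPA1B, the regulator HSF1, HSPH1, BAG3 and HSPD1 had overlapping groups. The threshold of the study, a change of more than 1.5-fold with an unadjusted p under 0.05, was applied here in limma. It was passed upward by 2 of the 9 genes tested and downward by 0, against 7.55% and 7.07% of all genes tested. With DESeq2, which the study names, 1 of the 9 passed upward, where 1045 of all 15251 genes did. DNAJB1 was then at 0.58 in log2 fold change, short of the threshold. After Benjamini-Hochberg adjustment over all 15251 genes in limma, 1 heat shock gene was under 0.05 and higher, against 2.28% of all genes. The groups of 3 did not overlap for 4 of the 9 genes, all higher in shEZH2, against 18.4% of all genes with separate groups in that direction. The median log2 fold change of the 9 genes was 0.14, beside 0.04 over all genes, and 7 of the 9 values were above 0. That direction did not hold with the gene length trend removed, where the median was -0.01 and 4 of the 9 values were above 0.

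EZH2 itself had 483, 437 and 552 normalized counts in the Vector libraries, here and below in the order of the replicates, against 237, 247 and 225 after knockdown. The groups did not overlap, and the log2 fold change was -1.04 (standard error 0.14, limma adjusted p = 0.0142). Normalized counts are reads per gene divided by 1 size factor per library. The library totals were 13400290 to 15923029 reads in Vector and 16129171 to 19128939 in shEZH2. All 10 melanocyte-lineage markers were above the minimum, with a summed level of 75942 to 101541 normalized counts in Vector and 79883 to 86351 in shEZH2. PMEL made up most of that sum, and single markers differed, with log2 fold changes of 1.68 for TYRP1, 0.88 for MLANA and -0.97 for TYR, all past the threshold, though MLANA was at 0.39 without Vector replicate 2. The markers of keratinocytes, fibroblasts, and blood and endothelium, of which 4 of 7, 6 of 6 and 4 of 7 were in the table, summed to at most 1012, 311 and 89.6 normalized counts in any library. Vector replicate 2 stood apart from the other libraries. Its mean chi-square per gene against the other Vector libraries was 119 and 117, where Vector replicates 1 and 3 had 2.14 between them and pairs of shEZH2 libraries had 6.49 to 23.9. Short genes were low in it and long genes high, and values without it are given beside results that it moves. Summed nuclear-retained RNAs, led by MALAT1 and NEAT1, were at 34090 to 68515 normalized counts in Vector, highest in replicate 2, and 23034 to 30892 in shEZH2, and their part in the results was not tested.

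The promoter sequences of 5 genes are shown because they carry the HSF1-type units and because 2 of the genes changed. They are the 130 bases up to the start site (positions -130 to -1) from RefSeq on GRCh38.p14, 5′ to 3′ on the strand of the gene, with the matches to GAANNTTC or TTCNNGAA in capitals.
HSPA8 (chr11:123062137-123062266, minus strand): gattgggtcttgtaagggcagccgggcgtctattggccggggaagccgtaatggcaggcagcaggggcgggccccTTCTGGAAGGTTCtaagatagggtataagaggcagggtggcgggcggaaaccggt
DNAJB1 (chr19:14518398-14518527, minus strand): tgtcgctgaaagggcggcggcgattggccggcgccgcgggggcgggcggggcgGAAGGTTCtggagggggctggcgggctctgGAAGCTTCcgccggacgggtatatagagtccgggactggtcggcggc
HSP90AA1 (chr14:102087045-102087174, minus strand): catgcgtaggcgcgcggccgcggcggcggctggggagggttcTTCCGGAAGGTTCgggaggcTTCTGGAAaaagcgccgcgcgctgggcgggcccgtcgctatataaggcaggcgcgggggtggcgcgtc
HSPA1A (chr6:31815413-31815542, plus strand): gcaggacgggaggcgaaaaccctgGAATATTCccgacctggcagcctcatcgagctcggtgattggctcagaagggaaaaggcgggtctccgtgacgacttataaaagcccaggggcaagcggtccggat
HSPA1B (chr6:31827608-31827737, plus strand): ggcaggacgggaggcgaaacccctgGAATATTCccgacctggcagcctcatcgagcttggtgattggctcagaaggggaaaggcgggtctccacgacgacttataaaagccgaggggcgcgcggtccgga

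The search covered positions -250 to 49 from each start site in RefSeq, and both motifs read the same on both strands. A promoter was in the table for 9 of the 10 genes. Of those, 6 held GAANNTTC or TTCNNGAA at 1 or more start sites, where 13.5% of all 35116 promoters and 16.2% of all 27305 genes did. A run of 3 alternating units, in which the 2 motifs overlap, occurred for 3 genes, where 0.490% of promoters and 0.608% of genes had one. HSPA8 had such runs at positions -55 to -43 and -230 to -218, HSP90AA1 at -88 to -76 of its second start site, with a further TTCNNGAA at -68 to -61, and HSPD1 in the window of its second start site. DNAJB1 had separate GAANNTTC matches at -77 to -70 and -47 to -40 of its second start site. HSPA1A had its match at -106 to -99 and HSPA1B at -105 to -98, and 121 of the 130 upstream bases shown matched between them in a gapped alignment. No match was found in the windows of HSPH1, BAG3 and HSPE1. For HSPE1 this depends on the window, because HSPD1 and HSPE1 start close together on opposite strands. The HSPE1 window (chr2:197500129-197500428) ends short of the HSPD1 window that holds the run (chr2:197499791-197500090). That run therefore lies upstream of the RefSeq start site of HSPE1 as well, outside the bases searched for it. It falls inside the annotated span of HSPE1 that was used in counting (chr2:197499994-197503457). The genes with matches therefore included HSPA8 and DNAJB1, which passed the threshold, and also HSP90AA1, HSPA1B and HSPD1, which did not. HSPA1A, also with a match, was not tested.

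The genes covered a wide range of levels. As RPKM, that is reads scaled to the gene length in the table and to the library total, HSP90AA1 was the highest with 252 ± 39.2 in Vector and 350 ± 34.8 in shEZH2 (SD, n = 3). HSPD1 followed with an RPKM of 185 ± 12.6 and 202 ± 14.0, and HSPA8 with 66.1 ± 4.09 and 153 ± 9.67. These were the 3 most abundant heat shock genes in every library. HSF1 had an RPKM of 27.9 ± 2.58 in Vector, DNAJB1 19.0 ± 2.94, HSPH1 16.7 ± 0.908, BAG3 16.0 ± 1.82 and HSPE1 8.89 ± 5.50. Within that middle group, DNAJB1, HSPH1 and BAG3 lay within their spread of each other in Vector. HSPA1B was lower, with 3.65 ± 0.624, and HSPA1A lowest, with 0.156. In shEZH2 DNAJB1 reached 30.0 ± 2.49 and passed HSF1, which had 25.5 ± 3.70.

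The lengths in the table exceed those of the canonical transcripts, by 3.55 times for HSPE1, 2.49 times for HSF1 and 2.14 times for HSPA8. On canonical lengths the first 4 places kept their genes and HSPE1 moved from place 8 to place 5 in Vector, so the order of the middle genes depends on the length used. Together the 10 genes held 0.276%, 0.301% and 0.281% of the reads in the Vector libraries and 0.369%, 0.419% and 0.380% in the shEZH2 libraries. That share was higher in every shEZH2 library than in any Vector library, and most of it came from HSP90AA1, HSPD1 and HSPA8.

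**Figure D1:**
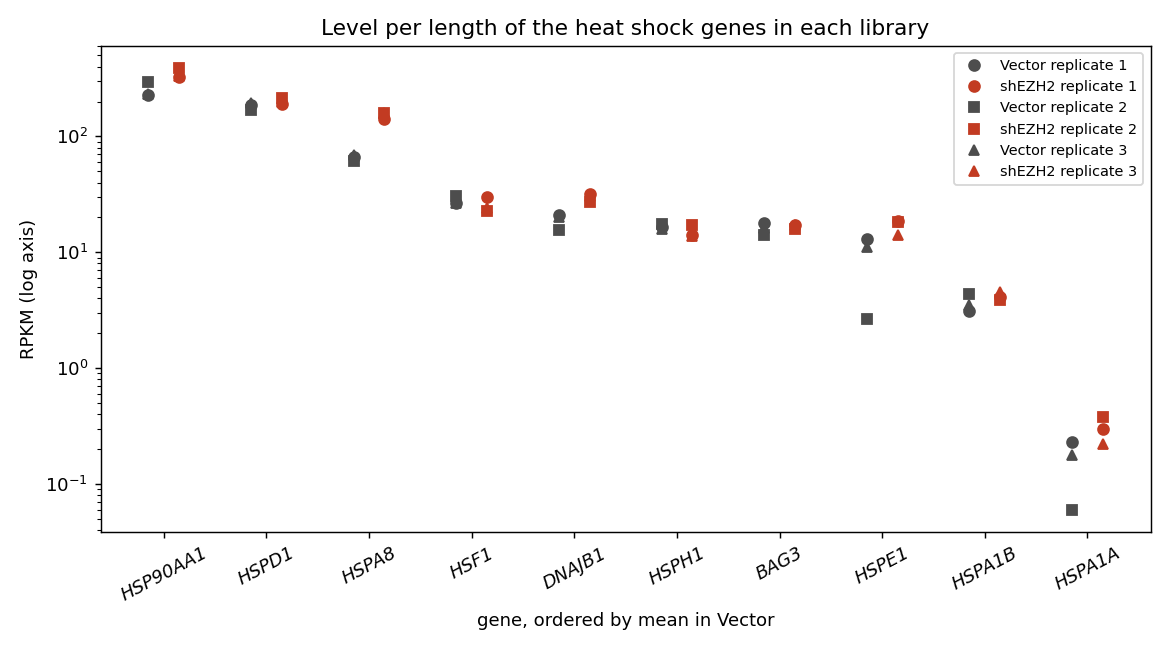
Level of the 10 heat shock genes as RPKM on a log axis, with the genes ordered by their mean in Vector and 1 point for each of the 3 Vector and 3 shEZH2 libraries. HSP90AA1, HSPD1 and HSPA8 lie above the other genes in every library, and the low Vector point of HSPE1 is replicate 2.

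HSF1 (ENSG00000185122, on the plus strand of chromosome 8) encodes the master regulator of the heat shock response. Its normalized counts were 2301, 2559 and 2274 in Vector and 2425, 1855 and 1998 in shEZH2. The first shEZH2 library lay within the Vector range and the other two below it. The log2 fold change was -0.19 (95% interval -0.54 to 0.16, limma adjusted p = 0.457). HSF1 is switched on mainly by changes to its protein, which RNA levels do not show. The 4 tested genes of the HSF family and its regulators had a median log2 fold change of 0.34, or 0.10 without Vector replicate 2, and 0 passed the threshold. The smallest p among them was that of HSBP1, a small protein that binds HSF1, at 0.98 in log2 fold change (standard error 0.44, limma adjusted p = 0.235), which was 0.40 without Vector replicate 2.

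HSPA8 (ENSG00000109971, GRCh38 chr11:123057489-123063230, minus strand) folds newly made proteins, uncoats clathrin vesicles and delivers proteins to the lysosome. It had 5315, 4662 and 5477 normalized counts in Vector and 10544, 11756 and 12050 in shEZH2. Every shEZH2 library was above every Vector library, and the gap between the groups was larger than the range within either. The means were 5151 ± 432 and 11450 ± 798 (SD, n = 3), and the log2 fold change was 1.15 (standard error 0.14, limma adjusted p = 0.0109). Without Vector replicate 2 it was 1.08, and with the gene length trend removed it was 1.11. Over all 18 alternatives the log2 fold change ran from 1.08 to 1.21 and passed the threshold of the study in each. The adjusted p ran from 2.28e-13 to 0.110, and it was over 0.05 with any 1 shEZH2 library left out. An exact permutation test of the 3 against 3 libraries gave p = 0.1 (two-sided), the smallest p that this design allows.

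HSPA1A (ENSG00000204389, GRCh38 chr6:31815464-31817946, plus strand) and HSPA1B (ENSG00000204388, GRCh38 chr6:31827735-31830255, plus strand) lie next to each other and encode nearly the same protein, the HSP70 that heat and proteotoxic stress induce. Their canonical transcripts are 98.6% identical over the best match, and 72.4% of the 100-base windows of HSPA1A and 68.9% of those of HSPA1B occur elsewhere in the genome (GRCh37) without a mismatch. Reads could therefore be split between them or lost in counting, and the level of each is uncertain. HSPA1A was counted with 9, 2 and 7 reads in Vector and 12, 18 and 9 in shEZH2, below the minimum for the test. One Vector library equalled the lowest shEZH2 library in reads, and an exact permutation test on log2 normalized counts gave p = 0.2 (two-sided). With no minimum, the log2 fold change was 0.90 (standard error 0.55, limma adjusted p = 0.481).

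HSPA1B had 128, 170 and 145 normalized counts in Vector and 158, 149 and 179 in shEZH2. The groups overlapped, and the log2 fold change was 0.14 (95% interval -0.26 to 0.55, limma adjusted p = 0.629). The sum of HSPA1A and HSPA1B does not depend on how reads were split between them. That sum was 137, 172 and 152 normalized counts in Vector and 169, 164 and 188 in shEZH2. The groups overlapped here too, with a log2 fold change of 0.18 (95% interval -0.19 to 0.55, limma adjusted p = 0.511), or -0.03 with the gene length trend removed. At these levels a doubling of the inducible HSP70 genes lay outside the interval, and a change of up to 0.55 on the log2 scale did not. Shares were taken of the summed RPKM of 5 cytosolic HSP70 genes, HSPA8, HSPA1A, HSPA1B, HSPA1L and HSPA6. Other HSP70 and HSP110 genes of the cytosol were left out. Among them was HSPA14, with a mean RPKM of 6.37 in Vector and 5.92 in shEZH2, which would lower the shares. HSPA8 made up 94.8%, 92.8% and 94.7% of it in Vector and 96.6%, 97.1% and 96.8% in shEZH2. HSPA1A and HSPA1B together made up 4.70%, 6.60% and 5.05% in Vector and 2.99%, 2.60% and 2.91% in shEZH2. As counted, HSPA8 thus held most of the summed RPKM of these 5 genes in both groups. The shares also depend on the lengths used, which are 2.14 times canonical for HSPA8, 1.03 for HSPA1A and 1.00 for HSPA1B. Any reads of HSPA1A and HSPA1B lost in counting would make their share too low.

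The other HSP70 and HSP110 genes of the cytosol, 6 of which were tested, had a median log2 fold change of -0.02, or 0.11 without Vector replicate 2, and 0 past the threshold. The smallest p among them belonged to HSPA4L, an HSP110-type gene, at 0.23 in log2 fold change (standard error 0.19, limma adjusted p = 0.469). By the patterns over the 6 libraries, the genes nearest to HSPA8 among 11890 genes were ACO1, TGFBI and LINC00707, with Euclidean distances of 0.13, 0.15 and 0.17 between log2 deviations. Those nearest to HSPA1A among 11891 genes were HIGD1A, SRSF2 and RPL23AP7, at 0.37 to 0.38, so no gene followed the few reads of HSPA1A as closely.

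**Figure D2:**
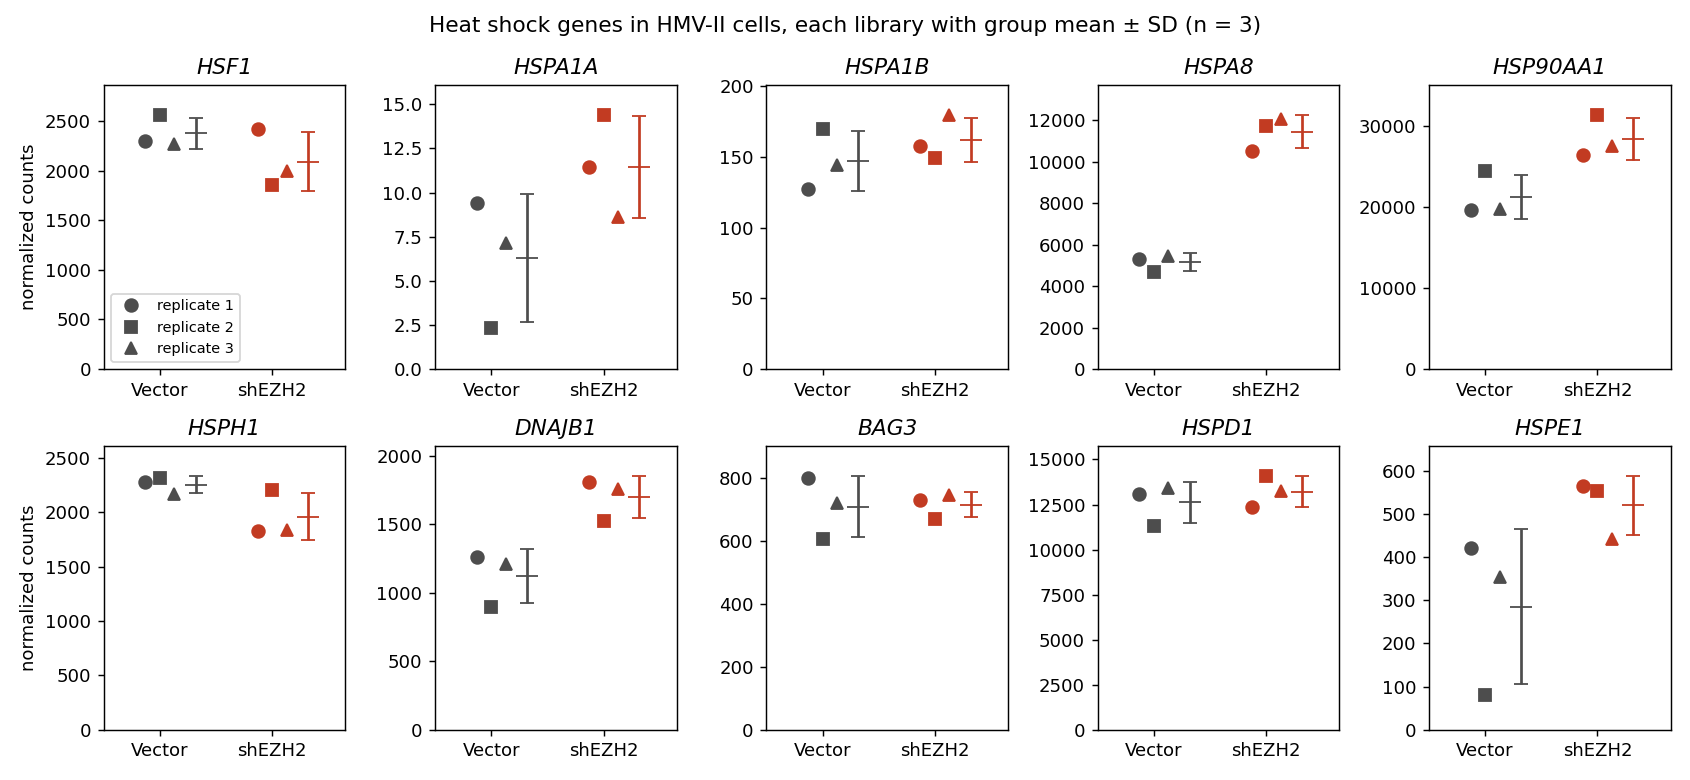
Normalized counts of each of the 10 heat shock genes in the 3 Vector and 3 shEZH2 libraries, with the mean and SD of each group (n = 3) beside the points and each axis starting at 0. The groups are apart for HSPA8, HSP90AA1, DNAJB1 and HSPE1 and overlap for the other genes.

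HSP90AA1 (ENSG00000080824, GRCh38 chr14:102080738-102139699, minus strand) encodes HSP90 alpha, the inducible form of cytosolic HSP90. Its normalized counts were 19596, 24372 and 19719 in Vector and 26319, 31254 and 27526 in shEZH2. All shEZH2 libraries were above all Vector libraries, and replicate 2 was the highest of each group. The means were 21229 ± 2722 and 28366 ± 2573 (SD, n = 3). The log2 fold change of 0.42 (95% interval 0.02 to 0.83, limma adjusted p = 0.201) was short of the threshold. Without Vector replicate 2 it was 0.53 with an adjusted p of 0.00258 in limma, in a range of 7.09e-05 to 0.442 over the alternatives. The annotated span of HSP90AA1 shares 197 bases with that of WDR20 on the other strand, which had mean levels of 334 and 315 normalized counts in Vector and shEZH2. The RPKM ratio of HSPA8 to HSP90AA1 was 0.294, 0.207 and 0.301 in Vector and 0.434, 0.407 and 0.474 in shEZH2, higher in every shEZH2 library.

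Among 13 other genes of HSP90 and its co-chaperones, 3 were called higher and 0 lower, against 7.55% and 7.07% of all genes, with a median log2 fold change of 0.31. Without Vector replicate 2 there were 2 called higher and a median of 0.09, and 2 were called higher with the length trend removed. TOMM34, a partner of HSP70 and HSP90 in mitochondrial protein import, rose by 0.81 in log2 (standard error 0.18, limma adjusted p = 0.0528), and its value without Vector replicate 2 was 0.63. FKBP4, which links HSP90 to steroid receptors, rose by 0.67 (standard error 0.14, limma adjusted p = 0.0432), from 2096, 1686 and 2041 normalized counts in Vector to 3161, 2985 and 3057 in shEZH2. FKBP5, its close relative, rose by 0.59 (standard error 0.19, limma adjusted p = 0.129), or 0.70 without that library. FKBP4 was the only one of the 13 with an adjusted p under 0.05 with all 6 libraries, and its value was 0.57 without Vector replicate 2. Without that library 5 of the 13 were under 0.05, all higher. Over all 15251 genes, those higher by adjusted p rose from 348 to 1491 in the same step. HSP90AB1, the constitutive HSP90 gene, named here after its values were seen, had 18175, 16353 and 18052 normalized counts in Vector and 21760, 23490 and 23864 in shEZH2. Its groups did not overlap either. Its log2 fold change of 0.39 (limma adjusted p = 0.177) was close to that of HSP90AA1 in the main fit and also short of the threshold. With the gene length trend removed, HSP90AB1 was at 0.22 and HSP90AA1 at 0.40. Without Vector replicate 2 the values were 0.35 and 0.53.

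DNAJB1 (ENSG00000132002, GRCh38 chr19:14514770-14529770, minus strand) encodes HSP40, a stress-inducible J-domain protein of the cytosol. It had 1261, 893 and 1212 normalized counts in Vector and 1812, 1528 and 1762 in shEZH2. The groups did not overlap, and replicate 2 was the lowest of each group. The means were 1122 ± 200 and 1700 ± 152 (SD, n = 3), and the log2 fold change was 0.61 (95% interval 0.21 to 1.01, limma adjusted p = 0.0920). As a fold it lay just above the 1.5 of the threshold. It was 0.46 without Vector replicate 2 (limma adjusted p = 0.0105) and 0.49 with the gene length trend removed (limma adjusted p = 0.0433), and so fell short of the fold threshold under 8 of 18 alternatives while the direction held in all. Its adjusted p ran from 3.00e-05 to 0.314 over them.

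The annotated span of DNAJB1 shares 12686 bases with that of TECR, a gene of fatty acid elongation on the other strand. This includes introns, since the length of DNAJB1 in the table is 3672 bases, and the overlap of exons was not determined. Whether the counting used strand was not given in the sources used here. TECR had 825, 419 and 725 normalized counts in Vector and 1083, 979 and 1035 in shEZH2. Its log2 fold change was 0.71 (standard error 0.25, limma adjusted p = 0.151), or 0.41 without Vector replicate 2. The direction was that of DNAJB1, and without strand the reads of both genes cannot be told apart where their exons overlap.

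The other 15 cytosolic J-domain genes had a median log2 fold change of 0.03, or -0.12 without Vector replicate 2, with 1 called higher and 2 lower, against 7.55% and 7.07% of all genes. Without Vector replicate 2, and likewise with the length trend removed, 0 were called higher and 1 lower. DNAJA1, an abundant partner of HSC70, had 838, 467 and 822 normalized counts in Vector and 969, 1068 and 1101 in shEZH2. It rose by 0.61 in log2 (standard error 0.24, limma adjusted p = 0.182), with 0.33 without Vector replicate 2, whose count was the lowest. DNAJC2, which assists folding at the ribosome, fell by 0.86 (standard error 0.12, limma adjusted p = 0.0165), and its value without Vector replicate 2 was -0.87. DNAJB14, a J-domain protein of the endoplasmic reticulum membrane facing the cytosol, fell by 0.66 (standard error 0.18, limma adjusted p = 0.0831), and was at -0.58 without Vector replicate 2 and -0.43 with the length trend removed, both short of the threshold.

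HSPH1 (ENSG00000120694, GRCh38 chr13:31134974-31162388, minus strand) encodes HSP105, an HSP110-type nucleotide exchange factor for HSP70. It had 2276, 2317 and 2164 normalized counts in Vector and 1828, 2206 and 1835 in shEZH2. The shEZH2 library of replicate 2 lay within the Vector range and the other two below it. The log2 fold change was -0.21 (95% interval -0.52 to 0.11, limma adjusted p = 0.381). BAG3 (ENSG00000151929, GRCh38 chr10:119651370-119677819, plus strand) is a stress-induced exchange factor that directs HSP70 clients to autophagy. Its normalized counts were 799, 605 and 721 in Vector and 730, 669 and 745 in shEZH2. The groups overlapped throughout, and the log2 fold change was 0.02 (95% interval -0.33 to 0.37, limma adjusted p = 0.945), with a sign that changed between alternatives. Of 8 other exchange and partner proteins of HSP70, 0 passed the threshold, and their median was 0.19, or 0.11 without Vector replicate 2. The smallest p belonged to BAG1, also an exchange factor, with 0.51 (standard error 0.16, limma adjusted p = 0.123), or 0.38 without Vector replicate 2.

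**Figure D3:**
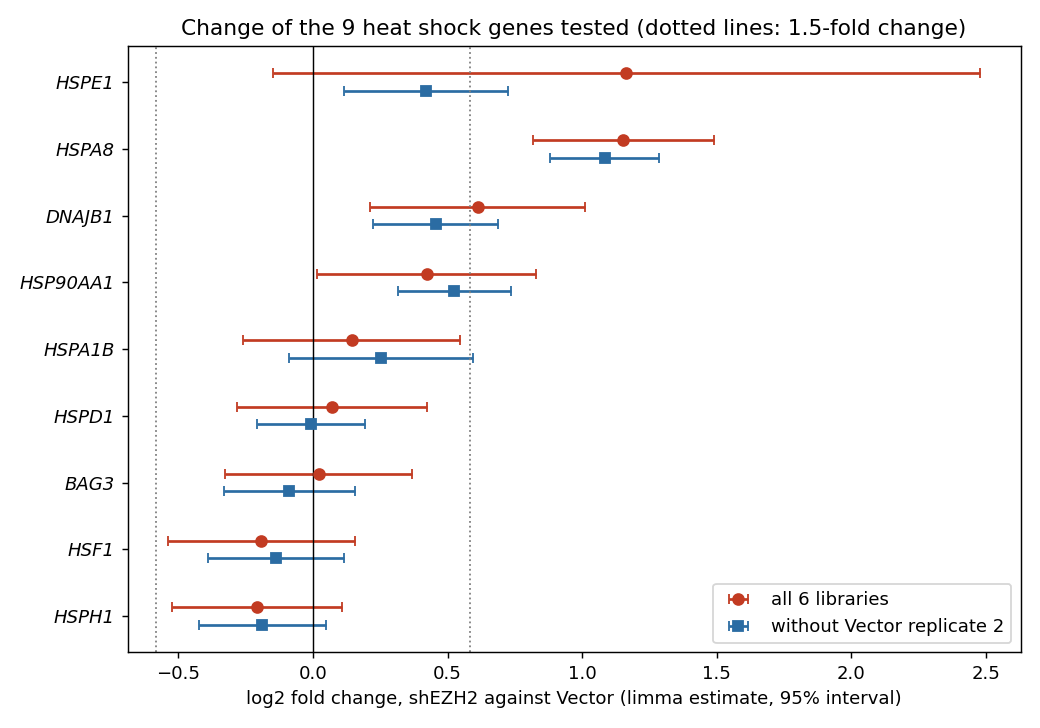
Log2 fold change of shEZH2 against Vector for the 9 heat shock genes tested, as points with 95% intervals from limma, with all 6 libraries and without Vector replicate 2, and dotted lines at a 1.5-fold change in both directions. Only HSPA8 has its whole interval past a dotted line with all 6 libraries, and the interval of HSPE1 narrows and its value falls from 1.16 to 0.42 without Vector replicate 2.

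HSPD1 (ENSG00000144381, GRCh38 chr2:197486581-197516737, minus strand) encodes HSP60, and HSPE1 (ENSG00000115541, GRCh38 chr2:197499994-197503457, plus strand) encodes HSP10, the ring and the lid of the mitochondrial chaperonin. HSPD1 had 13109, 11313 and 13435 normalized counts in Vector and 12349, 14060 and 13255 in shEZH2. The groups overlapped, with a log2 fold change of 0.07 (95% interval -0.28 to 0.42, limma adjusted p = 0.798). HSPE1 had 421, 81.5 and 353 normalized counts in Vector and 565, 553 and 442 in shEZH2. Every shEZH2 library was above every Vector library, but Vector replicate 2 was far below the rest and set most of the spread. The means were 285 ± 180 and 520 ± 67.8 (SD, n = 3). The log2 fold change of 1.16 had a 95% interval of -0.15 to 2.48 (limma adjusted p = 0.263) and did not pass the threshold. Without Vector replicate 2 it was 0.42 (standard error 0.14, limma adjusted p = 0.0543), and without Vector replicate 1 or 3 it was 1.60 or 1.47. It passed the threshold under 4 of 18 alternatives, and the adjusted p ran from 0.0543 to 0.509.

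The partners of the chaperonin therefore had different values, and the RPKM ratio of HSPD1 to HSPE1 was 14.5, 64.6 and 17.7 in Vector and 10.2, 11.8 and 14.0 in shEZH2. Every Vector library was above every shEZH2 library in this ratio, and Vector replicate 2 again stood apart. The lengths used are 1.89 times the canonical one for HSPD1 and 3.55 times for HSPE1. The size of the ratio therefore depends on the length used, but its order between libraries does not. The annotated spans of both genes share 3464 bases on opposite strands, which is the whole span of HSPE1. The overlap of their exons was not determined, and without strand their reads cannot be told apart where exons overlap. HSPE1 shares 3045 bases with the readthrough gene HSPE1-MOB4 on its own strand, which had means under 1 normalized count. HSPE1 also has 26 similar loci elsewhere in the genome, and 11.6% of its 100-base windows and 12.1% of those of HSPD1 occur elsewhere without a mismatch, which adds to the uncertainty of their levels. The same share was 3.74% for HSPA8 and 3.07% for HSP90AA1, and 0 for HSF1, HSPH1, DNAJB1 and BAG3. Among 16 other mitochondrial chaperones and proteases, 0 passed the threshold, with a median of 0.02, or -0.03 without Vector replicate 2. The smallest p was that of HSCB, a J-domain protein of iron-sulfur cluster assembly, with 0.42 (standard error 0.16, limma adjusted p = 0.177).

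The departure of Vector replicate 2 touched these genes unequally, and its cause was not tested. By quintile of gene length, its median log2 difference from the mean of Vector replicates 1 and 3 ran from -0.54 for the shortest genes to 0.42 for the longest. Among the heat shock genes the difference was -2.23 for HSPE1 and -1.47 for HSPA1A, the shortest of the 10. It was -0.47 for DNAJB1, -0.33 for BAG3, -0.23 for HSPD1 and -0.21 for HSPA8. The difference was 0.06 for HSPH1, 0.16 for HSF1, 0.31 for HSP90AA1 and 0.32 for HSPA1B. HSPE1 and HSPA1A thus lay below the 10th to 90th percentile band or at its edge, and the other genes within it. The length trend of HSPE1 was -0.51 in Vector replicate 2 and 0.11 and 0.10 in Vector replicates 1 and 3. HSPA1A rested on 2 reads in Vector replicate 2, and reads could be split between it and HSPA1B. The ratio of HSPA1B to HSPA1A reads was 73 in that library, against 13.6 and 20.3 in Vector replicates 1 and 3. Without this library the median of the 9 genes was 0.25, beside -0.01 over all genes. HSPA8 alone then passed the threshold of the study, and HSPA8, HSP90AA1 and DNAJB1 had an adjusted p under 0.05 in limma. Over all 15251 genes, 1075 were then called higher. By adjusted p, 1491 of all genes were then higher, where 348 were with all 6 libraries.

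**Figure D4:**
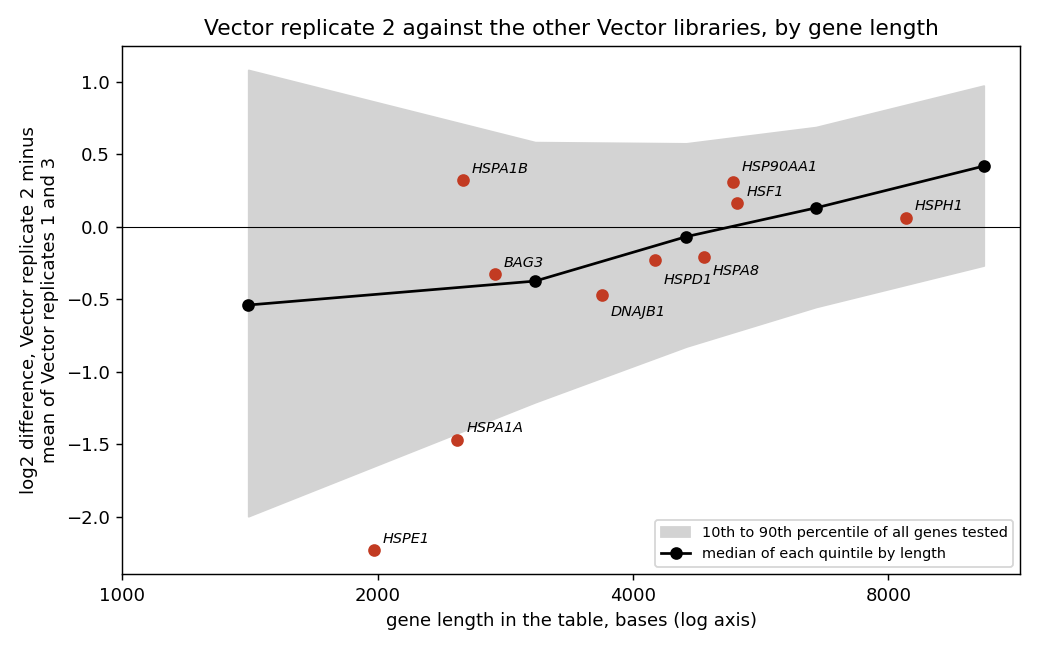
Log2 difference of Vector replicate 2 from the mean of Vector replicates 1 and 3 against gene length in bases on a log axis, with the 10 heat shock genes as red points, the median of each quintile of genes as the black line and the 10th to 90th percentile as the grey band. The median rises from -0.54 to 0.42 with length, and HSPE1 lies below the band at -2.23.

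The other chaperone lists together held 95 genes, of which 91 were in the table and 83 were tested. Of these, 5 were called higher and 2 lower, or 6.02% and 2.41%, against 7.55% and 7.07% of all genes. Their median log2 fold change was 0.12, and -0.01 without Vector replicate 2, where 2 were called higher and 1 lower. HSPB1, the abundant small heat shock protein HSP27 and the only one of its list that was tested, had 3409, 1124 and 3147 normalized counts in Vector and 5614, 4021 and 4190 in shEZH2. It rose by 0.99 in log2 (standard error 0.41, limma adjusted p = 0.201), with 0.48 without Vector replicate 2. The 14 subunits of TRiC, the cytosolic chaperonin for actin and tubulin, and of its partner prefoldin had a median of 0.24, or -0.01 without Vector replicate 2, and 0 passed the threshold. CCT7 had the smallest p of that list, with 0.51 (standard error 0.18, limma adjusted p = 0.147), or 0.34 without Vector replicate 2. Among 6 other heat-inducible genes, 0 passed, with a median of 0.24, or -0.08 without Vector replicate 2, and the smallest p was that of the polyubiquitin gene UBB, with 0.79 (limma adjusted p = 0.353) and 0.16 without Vector replicate 2.

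**Figure D5:**
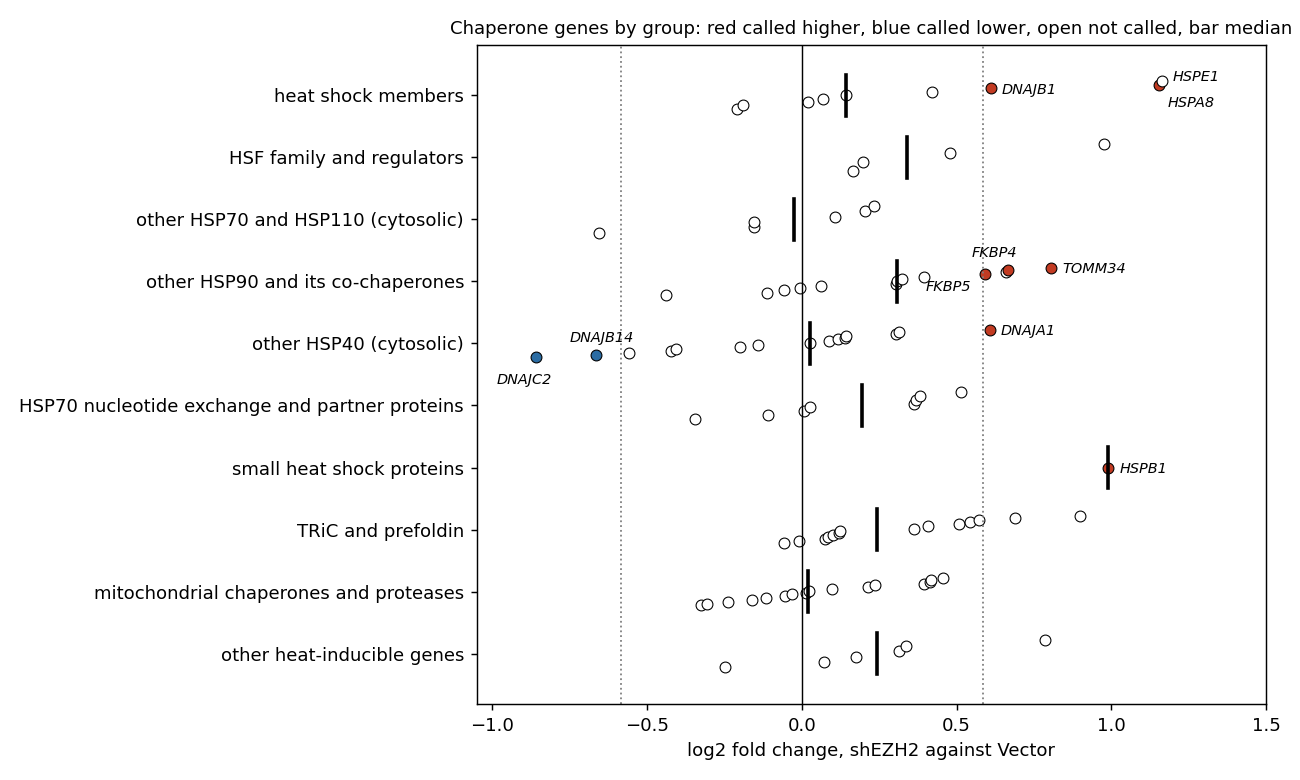
Log2 fold change of shEZH2 against Vector for the heat shock genes and 9 groups of other chaperone genes, 1 point per gene, with the group median as a bar, dotted lines at a 1.5-fold change in both directions, and called genes filled and named. HSPA8 and DNAJB1 are the called genes of the first row, where HSPE1 is open, and most genes of the other groups lie between the dotted lines.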

How the data were processed

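RNA-seq of 3 Vector and 3 shEZH2 libraries of HMV-II cells (poly-A RNA, Illumina NovaSeq) was used. The deposited signal values were made by the authors by running featureCounts (v1.5.0-p3) and dividing the reads of each gene by 1 size factor per library, for which the submitters' processing notes name DESeq2 1.20.0. Multiplication by that factor gave whole reads for 100% of values (tolerance 0.01). The authors also deposited their own log2 fold changes and p-values, which were not used. Aligner and strandedness were not given in the sources used here. The processing notes name hg19, but the gene coordinates are GRCh38, since 47.7% of 20626 genes share a start or end with RefSeq on GRCh38 and 0.708% on GRCh37. Columns A and B of the table were taken as Vector and shEZH2, and their numbers as replicate numbers.

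The 10 genes and the lists of other chaperone genes were chosen with earlier results of these data known. limma 3.58.1 (lmFit, eBayes with trend) was fitted in R 4.3.3 to log2(normalized count + 1) for 15251 genes (mean 10 or more), without a replicate block. Fold changes are on that scale, and p-values were adjusted by Benjamini-Hochberg over all of these genes. On recovered reads, edgeR 4.0.16 and DESeq2 1.42.0 were alternatives, as were other pseudocounts, minimums and scalings, a loess fit (span 0.5) on gene length, array weights and fits without each library. Genes named besides the 10 were those past the threshold in a list, at most 3, or otherwise the one with the smallest p, and the 3 nearest in pattern to HSPA8 and HSPA1A. Similar loci were found with minimap2 2.31-r1302 on GRCh37. Same-numbered libraries had correlations of 0.28, 0.22 and -0.11 between their deviations from the group means, so the numbers were not treated as pairs. The scripts were tested on simulated data.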

Additional observations from a re-analysis of the deposited data

How the results depend on the processing

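HSPA8 kept its direction and stayed past the threshold under all 18 alternatives. The number of heat shock genes called higher was 1 in place of 2 with DESeq2, with the RLE or upper-quartile factors of edgeR, with the gene length trend removed, with array weights and with an adjusted p in place of the threshold. DNAJB1 was the gene lost in the first 5 of these, with log2 fold changes of 0.58, 0.58, 0.58, 0.49 and 0.51. With each library left out in turn, 1 to 3 heat shock genes were called higher and 0 lower. The count was 1 without Vector replicate 2, shEZH2 replicate 1 or shEZH2 replicate 3, where DNAJB1 fell to 0.46, 0.56 and 0.58. It was 3 without Vector replicate 1 or 3, where HSPE1 passed, as it also did with no minimum.

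Of the other chaperone genes, 5 were called higher with all libraries. That count was 3 with DESeq2, 3 with the TMM factors of edgeR, 2 with its RLE and 2 with its upper-quartile factors, 9 with no minimum, 3 with the length trend removed, 2 with array weights and 1 by adjusted p. The 2 called lower became 1 with the length trend removed, 4 with array weights and 1 by adjusted p. With each library left out, the counts were 2 to 8 higher and 1 to 3 lower, with 2 and 1 without Vector replicate 2. Over all genes 1151 were higher and 1078 lower, or 348 and 281 by adjusted p, and 849 to 1525 and 773 to 1318 with each library left out. By adjusted p, DESeq2 called 770 higher and 874 lower, and array weights 3630 and 3498, among them HSF1, HSPA1B and HSPH1 at 0.0293, 0.0121 and 0.00811.

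The sum of HSPA1A and HSPA1B changed sign with the length trend removed, to -0.033, and ran from 0.10 to 0.27 with each library left out. Some log2 fold changes near 0 changed sign, none of them past the threshold. With the length trend removed, HSPA1B was at -0.069, BAG3 at -0.18 and HSPD1 at -0.015. BAG3 was at -0.0078 with DESeq2, -0.0072 with RLE factors, -0.013 with upper-quartile factors and -0.021 when libraries were weighted. Over the fits with 1 library fewer, BAG3 ran from -0.088 to 0.112, below 0 without Vector replicate 2 or shEZH2 replicate 3, and HSPD1 from -0.0074 to 0.118, below 0 without Vector replicate 2. The cause was not tested.

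With a replicate block, HSPE1 passed the threshold at a log2 fold change of 1.16 and 3 heat shock genes were called higher, while the adjusted calls over all genes were 224 and 200. Replicate 3 libraries did not deviate together, and the numbers were not treated as pairs. Vector replicate 2 sets much of the deviation within Vector, so this check cannot exclude that cultures were paired. HSPA1A could not be fitted with the minimum of 10, and its 2 to 18 reads per library limit what can be seen of it.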

Other observations

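HSPA9, the HSP70 of the mitochondrial matrix that feeds proteins to the HSPD1 and HSPE1 chaperonin, was singled out after its values were seen. It had 16840, 16924 and 16933 normalized counts in Vector and 12830, 14138 and 14122 in shEZH2, with all shEZH2 values under the Vector range. Its log2 fold change was -0.30 (standard error 0.14, limma adjusted p = 0.247), short of the threshold. Without Vector replicate 2 it was also -0.30, with an adjusted p of 0.0327 in limma. With the gene length trend removed it was -0.19, with an adjusted p of 0.387 in limma. HSPA6, an HSP70 gene that is close to silent without stress, had a mean of 10.1 normalized counts in Vector and 11.4 in shEZH2. CRYAB and HSPB8, small heat shock genes that stress induces, had means of 4.19 and 1.27 normalized counts in shEZH2 and 3.44 and 0.349 in Vector, too low to test.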
